A study of Mus musculus with 12 samples.

Results

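The genes of glycolysis and of the cellular response to low oxygen were examined in RAW 264.7 cells. This mouse line, which carries Abelson leukaemia virus, grows attached and has the features of macrophages. The list held 39 genes, taken by symbol for their known roles, with no measured value in the rule. It was nevertheless drawn up with earlier results of these data known. A gene was followed where the array annotation gave a transcript cluster (the array's unit of measurement, a set of probes) with that gene as its only symbol. This held for 34 of the 39 genes, and 33 of these 34 lay above the level required for testing, among 14611 genes tested in all. There were 3 groups of 4 arrays, all from RAW 264.7 cells grown to confluency and collected 48 h after transfection. The cells received pre-miR-223, which adds miR-223 activity, anti-miR-223, which blocks it, or an irrelevant scramble oligonucleotide. The arrays are titled as biological replicates, and the labels do not say whether they came from separate cultures, so the p-values measure the spread between these arrays. Whether the oligonucleotides reached the cells was not checked here, since Mir223 had no single-symbol cluster.

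Glycolysis splits glucose into pyruvate in the cytosol. Glucose enters through the transporter encoded by Slc2a1, is trapped by hexokinases, is split by the enzymes of the upper pathway and yields ATP and pyruvate in the lower pathway. Pyruvate is either reduced to lactate and exported, or oxidised in mitochondria unless pyruvate dehydrogenase kinases block its entry. The hypoxia-inducible factors (HIF) are dimers of an oxygen-labile subunit, encoded by Hif1a or Epas1, and a stable partner, encoded by Arnt. In the presence of oxygen, prolyl hydroxylases (Egln genes) mark the labile subunit for destruction through the Vhl protein. HIF raises transcription of many glycolytic genes and of targets such as Vegfa and Bnip3, and macrophages are known to rely on this programme during inflammatory activation.

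The added and blocked molecule was miR-223, whose gene lies on chromosome X and which is best known in myeloid cells. Both of its mature sequences are given, with the seed (bases 2 to 8, the part that pairs with targets) in capitals. The array titles name miR-223 only, so which of these sequences was added or blocked is not known here. The sequences and coordinates come from RefSeq (GRCm38.p6), where mmu-miR-223-3p lies at chrX:96242884-96242905 and mmu-miR-223-5p at chrX:96242842-96242864, both on the plus strand.
mmu-miR-223-3p: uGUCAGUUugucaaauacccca
mmu-miR-223-5p: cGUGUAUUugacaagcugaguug
Each of these seeds was found in 1 mature miRNA of that table.

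The list was chosen to include HIF targets, so a high share of start regions with the letters that HIF binds was likely beforehand. The shares given here describe the list and are not an independent result. HIF binds a short core, and the letters ACGTG and GCGTG were searched on both strands in RefSeq windows (GRCm38.p6) from 250 bases before to 50 bases after each gene's start. A window was given for 36 of the 39 genes, and 32 of these held the core in at least 1 window (88.9%), against 46.7% of the 27025 genes with a window. Some genes have several windows: counted by window, 40 of 50 held the core (80%), against 43.8% of all 32851 windows. The palindrome CACGTG, called an E-box, contains ACGTG on both strands and was present in 6 of the 36 genes (16.7%), against 8.09% of all genes. Among the tested genes with a window, Eno2, Tpi1 and Vhl had no match. A match describes these letters only and is not evidence of binding. Windows are shown for Slc2a1 and Bnip3, which had the largest differences between pre-miR-223 and scramble arrays, and for Pgk1 and Ldha, each far higher in 1 array than in the other arrays of its group. The core is in capitals where either strand holds it. Slc2a1 is at chr4:119108495-119108794, plus strand. Pgk1 is at chrX:106186850-106187149, plus strand. Ldha is at chr7:46845554-46845853, plus strand. Bnip3 is at chr7:138909457-138909756, minus strand.
Slc2a1: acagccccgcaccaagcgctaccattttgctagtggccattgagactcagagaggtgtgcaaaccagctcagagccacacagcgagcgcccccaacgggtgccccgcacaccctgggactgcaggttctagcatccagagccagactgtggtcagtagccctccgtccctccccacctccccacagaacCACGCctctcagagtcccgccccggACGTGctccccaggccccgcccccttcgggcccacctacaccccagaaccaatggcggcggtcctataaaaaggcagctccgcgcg
Pgk1: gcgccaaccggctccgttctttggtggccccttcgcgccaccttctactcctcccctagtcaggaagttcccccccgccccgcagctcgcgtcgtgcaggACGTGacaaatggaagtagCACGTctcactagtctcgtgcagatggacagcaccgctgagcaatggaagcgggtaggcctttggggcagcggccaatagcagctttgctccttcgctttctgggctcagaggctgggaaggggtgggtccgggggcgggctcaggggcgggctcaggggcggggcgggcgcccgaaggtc
Ldha: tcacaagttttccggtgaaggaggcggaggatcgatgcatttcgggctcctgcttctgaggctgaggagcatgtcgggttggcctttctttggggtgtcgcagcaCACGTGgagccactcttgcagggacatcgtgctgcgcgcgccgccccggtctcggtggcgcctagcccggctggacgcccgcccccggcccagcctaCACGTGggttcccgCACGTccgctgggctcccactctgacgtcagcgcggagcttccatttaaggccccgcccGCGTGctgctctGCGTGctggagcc
Bnip3: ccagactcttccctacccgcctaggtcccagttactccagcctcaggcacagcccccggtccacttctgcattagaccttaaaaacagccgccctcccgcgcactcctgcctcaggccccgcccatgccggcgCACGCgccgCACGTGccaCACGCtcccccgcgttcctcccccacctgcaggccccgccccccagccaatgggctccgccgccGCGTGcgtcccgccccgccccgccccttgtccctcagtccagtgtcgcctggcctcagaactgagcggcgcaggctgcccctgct
Counted from the first base of the gene as position 0, the Slc2a1 cores begin at positions -61 and -36 and the Pgk1 cores at positions -150 and -131. The Ldha window held 7 matches, of which 4 make up 2 E-boxes, and the Bnip3 window held 5 matches, of which 2 make up 1 E-box.

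Precision is limited by having 4 arrays in a group, and arrays carry no read depth. By their median, though not each alone, the macrophage markers showed the labelled cell type. A single-symbol cluster was found for 18 of 19, all 18 were tested, and their median level was log2 8.44. The lowest were Mertk at 2.42, Aif1 at 3.82 and Fcgr3 at 4.14, and Mertk lay below the highest fibroblast and epithelial markers. Of the markers of other cell types, 7 of 10 fibroblast, 3 of 7 epithelial and 3 of 11 lymphoid markers lay above the level required for testing (log2 2.01). Those above it reached log2 3.28 for Acta2 among the fibroblast markers, 3.52 for Krt8 among the epithelial ones and 2.15 for Cd8a among the lymphoid ones. Anti-miR-223 replicate 4 stood apart. It correlated with the remaining arrays at a median r of 0.967, where every other array reached 0.988 to 0.992, and 629 of the tested genes differed over 2-fold from their mean of 12 arrays there, against at most 37 in any other array. Comparisons that use the anti-miR-223 group are therefore given with and without that array.

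**Figure D1:**
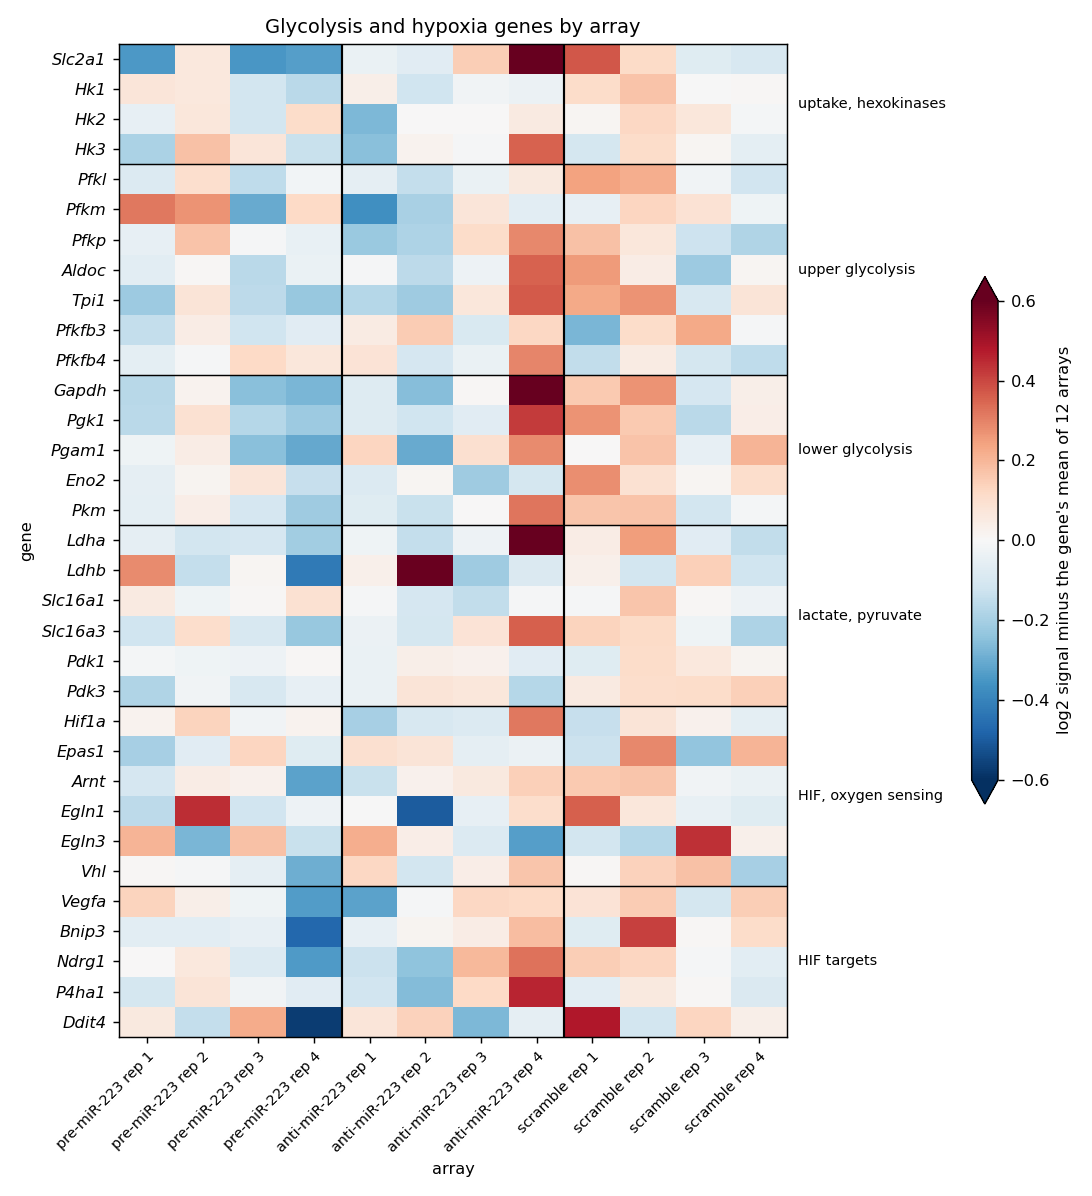
Log2 signal of each of the 33 tested genes (down the page, by role) in each of the 12 arrays (across), as the difference from that gene's mean of 12 arrays. Red is above and blue below the mean, and the colour scale stops at 0.6 in either direction. Anti-miR-223 replicate 4 is the highest array for 15 of the 33 genes, and pre-miR-223 replicate 4 is the lowest for 15.

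With pre-miR-223, most glycolysis and hypoxia genes sat slightly lower than with scramble, and no single gene passed the test. The group mean was lower in pre-miR-223 arrays for 29 of the 33 genes (87.9%), with a median log2 difference of -0.11 and a range of -0.32 to 0.12. Over all 14611 tested genes, 65.2% were lower, with a median of -0.05. The lower glycolysis enzymes had the most negative median of the 6 roles, at -0.19. The counts depended on how the arrays were scaled, for the list and for all genes. When each array was centred on its median, which shifts every gene of the comparison alike, 21 of 33 were lower, beside 43.0% of all genes, and the median of the list was -0.03. After cyclic loess 20 of 33 were lower, beside 49.6% of all genes, and the median of the list was -0.02.

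The limma test called 0 of the 33 genes at an adjusted p under 0.05 in this comparison, where it called 0% of all tested genes. The lowest adjusted p among the 33 was 0.921, which was also the lowest among all genes. At an unadjusted p under 0.05, 1 of the 33 genes, Bnip3, was lower and none was higher, beside 3.85% of all genes lower (711 genes in either direction). In 1 of the 33 genes, Pdk3, all pre-miR-223 arrays lay below all scramble arrays, which held for 2.2% of all genes. The 95% confidence interval of the difference lay within 1.5-fold in either direction (log2 0.58) for 30 of the 33 genes (90.9%), beside 82.8% of all genes. It lay within 2-fold for all 33, beside 14390 of all 14611 genes. These are bulk RNA values scaled to like distributions, so a lower value cannot tell fewer cells with a transcript from less transcript per cell.

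The level of the list as a whole varied between arrays of the same group. The median deviation of the 33 genes from their mean of 12 arrays was -0.06, 0.04, -0.08 and -0.14 in pre-miR-223 replicates 1 to 4. It was -0.04, -0.10, 0.00 and 0.17 in anti-miR-223 replicates 1 to 4, and 0.06, 0.12, -0.01 and -0.01 in scramble replicates 1 to 4. The groups overlapped, and the highest and lowest values came from anti-miR-223 replicate 4 and pre-miR-223 replicate 4. Anti-miR-223 replicate 4 was the highest of 12 arrays for 15 of the 33 genes (45.5%, against 34.1% of all genes). Pre-miR-223 replicate 4 was the lowest for 15 (45.5%, against 19.1% of all genes), and scramble replicate 2 was the highest for 8 (24.2%, against 9.28% of all genes).

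The macrophage markers were low and high in the same arrays. Their median deviation was -0.31 in pre-miR-223 replicate 4, 0.32 in anti-miR-223 replicate 4 and 0.21 in scramble replicate 2. Between pre-miR-223 and scramble arrays, 16 of the 18 markers were lower, with a median of -0.20, which was -0.12 with centred arrays and -0.09 after cyclic loess. Their summed log2 level ranged from 139.6 to 146.2 in pre-miR-223, from 139.7 to 150.8 in anti-miR-223 and from 143.1 to 147.8 in scramble arrays. The summed level of the 10 fibroblast markers ranged from 20.9 to 23.1, from 20.6 to 22.3 and from 20.4 to 22.5 in the same 3 groups, and 6 of its 7 tested genes were higher in pre-miR-223 than in scramble arrays. Epithelial markers summed to 14.8 to 16.5, 14.2 to 15.8 and 14.8 to 15.4 there, and lymphoid markers to 18.1 to 19.6, 17.7 to 19.2 and 18.2 to 18.8. Col1a1, Cdh1, Krt18 and Cd3d were above the level required for testing, at log2 2.53, 2.08, 2.34 and 2.12, while Dcn, Epcam, Cd3e and Ms4a1 were below it. The part of these shifts in the glycolysis and hypoxia values was not tested.

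**Figure D2:**
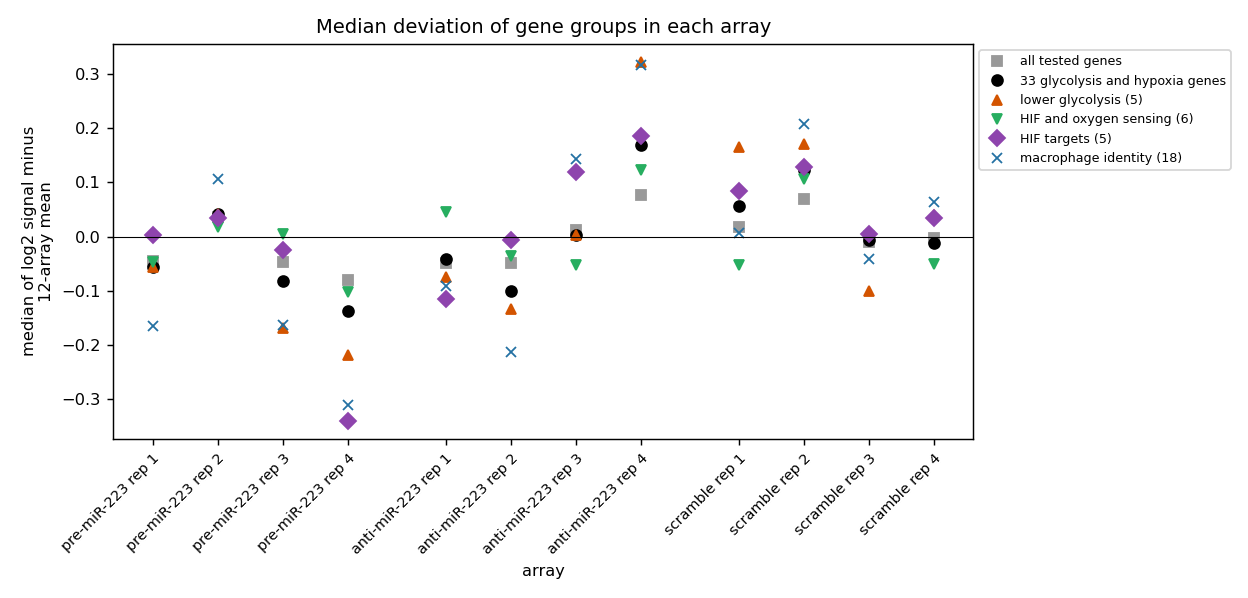
Median deviation from the mean of 12 arrays (vertical axis, log2) in each array (horizontal axis) for all tested genes, for the 33 glycolysis and hypoxia genes, for their lower glycolysis, oxygen-sensing and HIF target genes and for the macrophage markers. These sets are lowest in pre-miR-223 replicate 4 and highest in anti-miR-223 replicate 4; of the roles not plotted, upper glycolysis was lowest in anti-miR-223 replicate 2 (-0.16) and lactate and pyruvate handling was highest in scramble replicate 2 (0.11).

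Glucose entry gave the largest difference of the list. Slc2a1 encodes GLUT1, the main basal glucose transporter of many cells, and its log2 signal was 7.04, 7.45, 7.04 and 7.05 in pre-miR-223 replicates 1 to 4. It was 7.35, 7.32, 7.53 and 7.99 in anti-miR-223 arrays and 7.76, 7.50, 7.31 and 7.29 in scramble arrays. In pre-miR-223 replicates 1, 3 and 4 it was below every other array, while replicate 2 lay inside the range of both other groups. The mean was 7.15 ± 0.20 with pre-miR-223 and 7.47 ± 0.22 with scramble (SD, n = 4 arrays each), a difference of -0.32 (95% confidence interval -0.67 to 0.03, limma adjusted p = 0.921). Leaving out 1 array at a time gave -0.42 (without pre-miR-223 replicate 2) to -0.22 (without scramble replicate 1). The difference was -0.24 with centred arrays and -0.21 after cyclic loess.

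The 3 hexokinases, which phosphorylate glucose, had overlapping groups. Hk2, the isoform induced in activated macrophages, had a log2 signal of 6.02, 6.14, 5.96 and 6.18 in pre-miR-223, 5.80, 6.07, 6.07 and 6.12 in anti-miR-223 and 6.08, 6.19, 6.14 and 6.06 in scramble arrays. Anti-miR-223 replicate 1 was the lowest array, pre-miR-223 replicates 1 and 3 also lay below every scramble array, and the other arrays of the groups overlapped. The pre-miR-223 minus scramble difference of Hk2 was -0.04 (-0.26 to 0.17), and it was 0.04 with centred arrays and 0.07 after cyclic loess. Hk1 differed by -0.11 (-0.31 to 0.10) and Hk3 by -0.01 (-0.29 to 0.27). The role as a whole, with Slc2a1, had a median of -0.07 and 4 of 4 genes lower, which became 2 of 4 with centred arrays and 1 of 4 after cyclic loess.

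Upper glycolysis held genes on both sides of zero. Tpi1, triose phosphate isomerase, had a log2 signal of 9.42, 9.71, 9.47 and 9.41 in pre-miR-223, 9.46, 9.42, 9.70 and 10.00 in anti-miR-223 and 9.86, 9.90, 9.54 and 9.71 in scramble arrays. In 3 of the 4 pre-miR-223 arrays it was below all scramble arrays, and pre-miR-223 replicate 2 overlapped them. The mean was 9.50 ± 0.14 with pre-miR-223 and 9.75 ± 0.17 with scramble (SD, n = 4 each), a difference of -0.25 (-0.55 to 0.05, limma adjusted p = 0.921). The phosphofructokinase genes, which encode the committed step, differed by -0.12 for Pfkl, 0.07 for Pfkm and 0.03 for Pfkp. The bifunctional regulators of that step differed by -0.08 for Pfkfb3 and 0.12 for Pfkfb4, and the aldolase gene Aldoc by -0.09. In all, 4 of 7 were lower with a median of -0.08; with centred arrays 4 of 7 were lower and the median was -0.01, and after cyclic loess 3 of 7 were lower and the median was 0.02.

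All 5 tested genes of lower glycolysis had lower means in pre-miR-223 than in scramble arrays, also with centred arrays and after cyclic loess, where the median of the role was -0.11 and -0.10. Gapdh, the dehydrogenase that makes NADH, had a log2 signal of 10.49, 10.68, 10.41 and 10.38 in pre-miR-223, 10.58, 10.40, 10.66 and 11.29 in anti-miR-223 and 10.82, 10.92, 10.56 and 10.69 in scramble arrays. Its difference was -0.26 (-0.61 to 0.10), with pre-miR-223 replicate 2 inside the scramble range. Pgam1, phosphoglycerate mutase, had a log2 signal of 6.86, 6.93, 6.63 and 6.58 in pre-miR-223, 7.01, 6.58, 6.98 and 7.17 in anti-miR-223 and 6.88, 7.05, 6.83 and 7.09 in scramble arrays. The Pgam1 groups overlapped, and its difference was -0.21 (-0.50 to 0.07, limma adjusted p = 0.921). Pkm, pyruvate kinase, had a log2 signal of 10.29, 10.39, 10.24 and 10.13 in pre-miR-223, 10.27, 10.21, 10.35 and 10.67 in anti-miR-223 and 10.51, 10.52, 10.23 and 10.34 in scramble arrays. Its groups overlapped, with a difference of -0.14 (-0.39 to 0.12). Pgk1, the kinase that makes ATP upstream of Pkm, had a log2 signal of 9.24, 9.49, 9.23 and 9.18 in pre-miR-223, 9.32, 9.28, 9.34 and 9.82 in anti-miR-223 and 9.67, 9.56, 9.24 and 9.44 in scramble arrays. Its groups overlapped too, with a difference of -0.19 (-0.49 to 0.10). The enolase gene Eno2 differed by -0.15 (-0.35 to 0.06).

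Lactate and pyruvate handling gave 1 gene without overlap. Pdk3, a kinase that holds pyruvate dehydrogenase inactive, had a log2 signal of 5.16, 5.32, 5.25 and 5.29 in pre-miR-223, 5.30, 5.42, 5.41 and 5.17 in anti-miR-223 and 5.40, 5.45, 5.46 and 5.49 in scramble arrays. Every pre-miR-223 array was below every scramble array, and the anti-miR-223 arrays spread over both ranges. The mean was 5.26 ± 0.07 with pre-miR-223 and 5.45 ± 0.04 with scramble (SD, n = 4 each), a difference of -0.19 (-0.39 to 0.00, limma adjusted p = 0.921). Ldha, which reduces pyruvate to lactate, had a log2 signal of 3.71, 3.65, 3.66 and 3.56 in pre-miR-223, 3.74, 3.62, 3.73 and 4.36 in anti-miR-223 and 3.81, 4.02, 3.70 and 3.61 in scramble arrays. The Ldha groups overlapped; the pre-miR-223 minus scramble difference was -0.14 (-0.46 to 0.18), and -0.06 without scramble replicate 2. The only single-symbol cluster of Ldha had a mean of log2 3.76, against 10.66 for Gapdh and 10.34 for Pkm. How well it reports the Ldha transcript was not tested. Ldhb differed by -0.05, the lactate transporters Slc16a1 and Slc16a3 by -0.00 and -0.10, and Pdk1 by -0.04. In all, 6 of 6 were lower with a median of -0.08, which became 3 of 6 both with centred arrays, where the median was 0.00, and after cyclic loess, where it was -0.02.

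**Figure D3:**
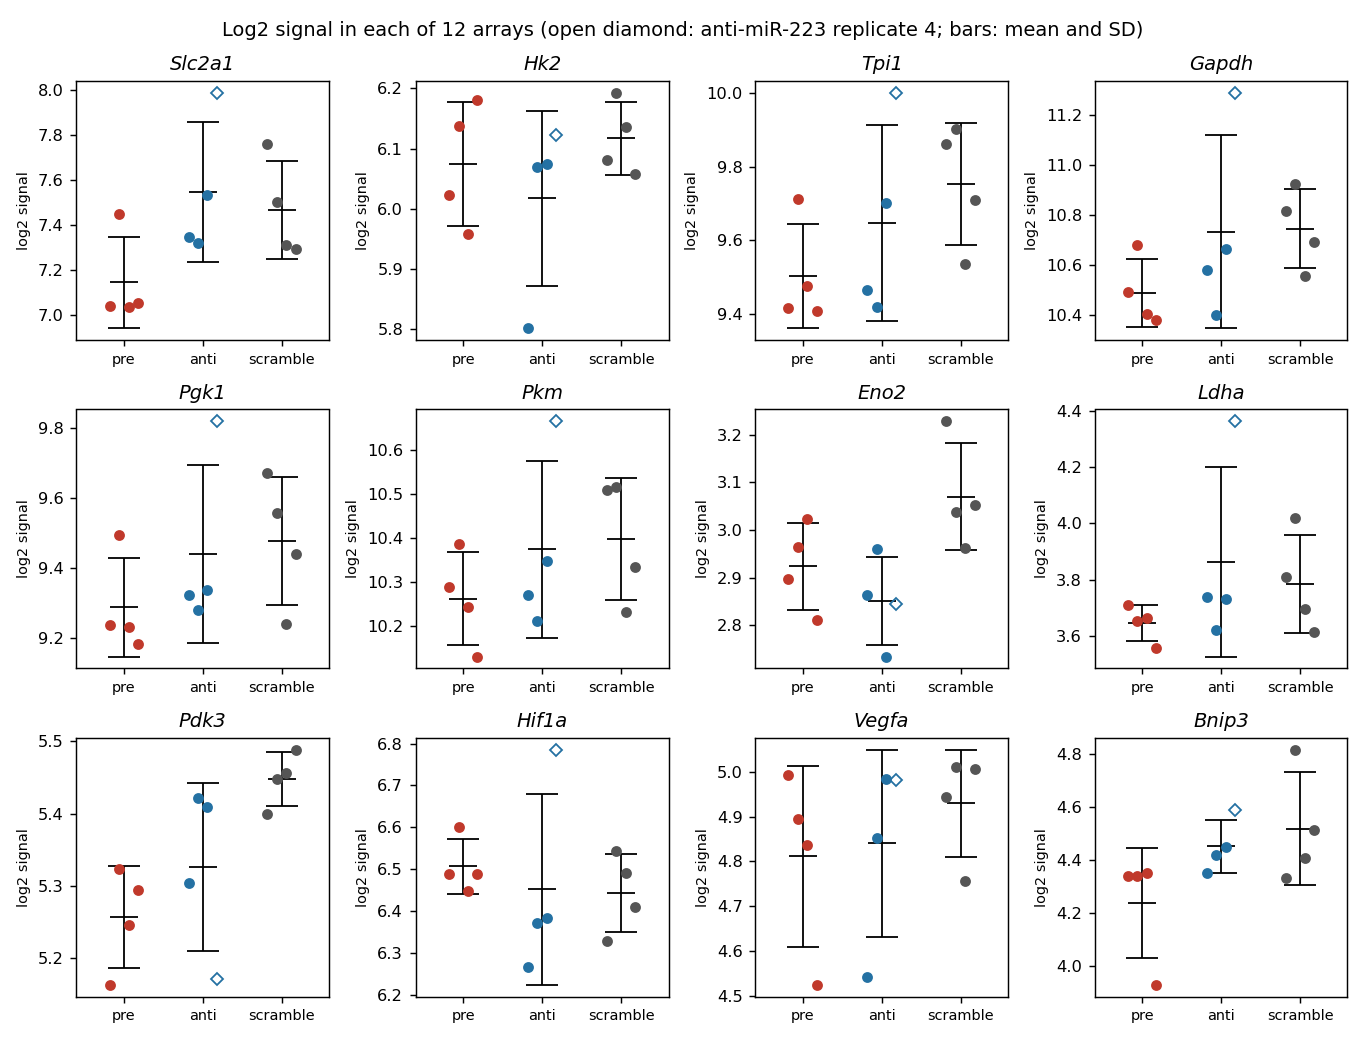
Log2 signal (vertical axis, a separate scale in each panel) of 12 glycolysis and hypoxia genes in the pre-miR-223, anti-miR-223 and scramble arrays (horizontal axis). Each point is 1 array, bars are the mean and SD of 4 arrays, and the open diamond is anti-miR-223 replicate 4, which is the highest array for genes such as Gapdh, Pgk1 and Ldha.

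The oxygen-sensing genes had overlapping groups, with Arnt farthest from scramble. Hif1a, the labile HIF subunit, had a log2 signal of 6.49, 6.60, 6.45 and 6.49 in pre-miR-223, 6.27, 6.37, 6.38 and 6.79 in anti-miR-223 and 6.33, 6.54, 6.49 and 6.41 in scramble arrays. The Hif1a groups overlapped and the pre-miR-223 minus scramble difference was 0.06 (-0.18 to 0.31). Its paralogue Epas1 differed by -0.09 and the partner Arnt by -0.15 (-0.39 to 0.08). The prolyl hydroxylases differed by -0.04 for Egln1 and -0.05 for Egln3, and Vhl by -0.12. The role gave 5 of 6 lower with a median of -0.07, which was 3 of 6 and 0.01 with centred arrays, and 4 of 6 and -0.03 after cyclic loess. HIF is controlled mainly at the protein level, which was not measured.

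The 5 tested HIF targets all had lower means with pre-miR-223, with a median of -0.14, and 4 of 5 stayed lower with centred arrays (median -0.06) and after cyclic loess (median -0.03). Bnip3, which encodes a mitophagy receptor, had a log2 signal of 4.34, 4.34, 4.35 and 3.93 in pre-miR-223, 4.35, 4.42, 4.45 and 4.59 in anti-miR-223 and 4.33, 4.81, 4.41 and 4.51 in scramble arrays. In 3 of the pre-miR-223 arrays it lay just inside the scramble range, and pre-miR-223 replicate 4 lay far below it. The mean was 4.24 ± 0.21 with pre-miR-223 and 4.52 ± 0.21 with scramble (SD, n = 4 each), a difference of -0.28 (-0.55 to just below zero; limma unadjusted p = 0.0499, adjusted p = 0.921). That difference was -0.17 without pre-miR-223 replicate 4 and -0.18 without scramble replicate 2. Vegfa, the endothelial growth factor, had a log2 signal of 4.99, 4.89, 4.84 and 4.52 in pre-miR-223, 4.54, 4.85, 4.98 and 4.98 in anti-miR-223 and 4.94, 5.01, 4.76 and 5.01 in scramble arrays. Its groups overlapped, with a difference of -0.12 (-0.40 to 0.16). Ddit4, an inhibitor of mTORC1, differed by -0.24 (-0.61 to 0.12), Ndrg1 by -0.14 and the collagen prolyl hydroxylase gene P4ha1 by -0.01. Ddit4 lay near the level required for testing (log2 2.01), at a mean of 2.12 and at 1.55 in pre-miR-223 replicate 4. Ldhb at 2.09, Egln3 at 2.33 and Epas1 at 2.52 were also near that level, and Pfkm at 2.71 and Eno2 at 2.95 came next. All of these are among the tested genes on which the counts rest.

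The scatter that these limits rest on included anti-miR-223 replicate 4, because all 12 arrays shared an estimate of the spread. Without that array, the differences between pre-miR-223 and scramble were the same. The median interval of the 33 genes then reached 0.23 to either side, against 0.28 with all arrays, though that of Pdk1 did not narrow. The count lower at an unadjusted p under 0.05 was then 5 of the 33 genes, Slc2a1, Tpi1, Gapdh, Pdk3 and Bnip3, beside 7.64% of all genes. The interval of Slc2a1 became -0.59 to -0.05 and that of Gapdh -0.49 to -0.02. Still limma called no gene, and the lowest adjusted p in the list was 0.521.

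**Figure D4:**
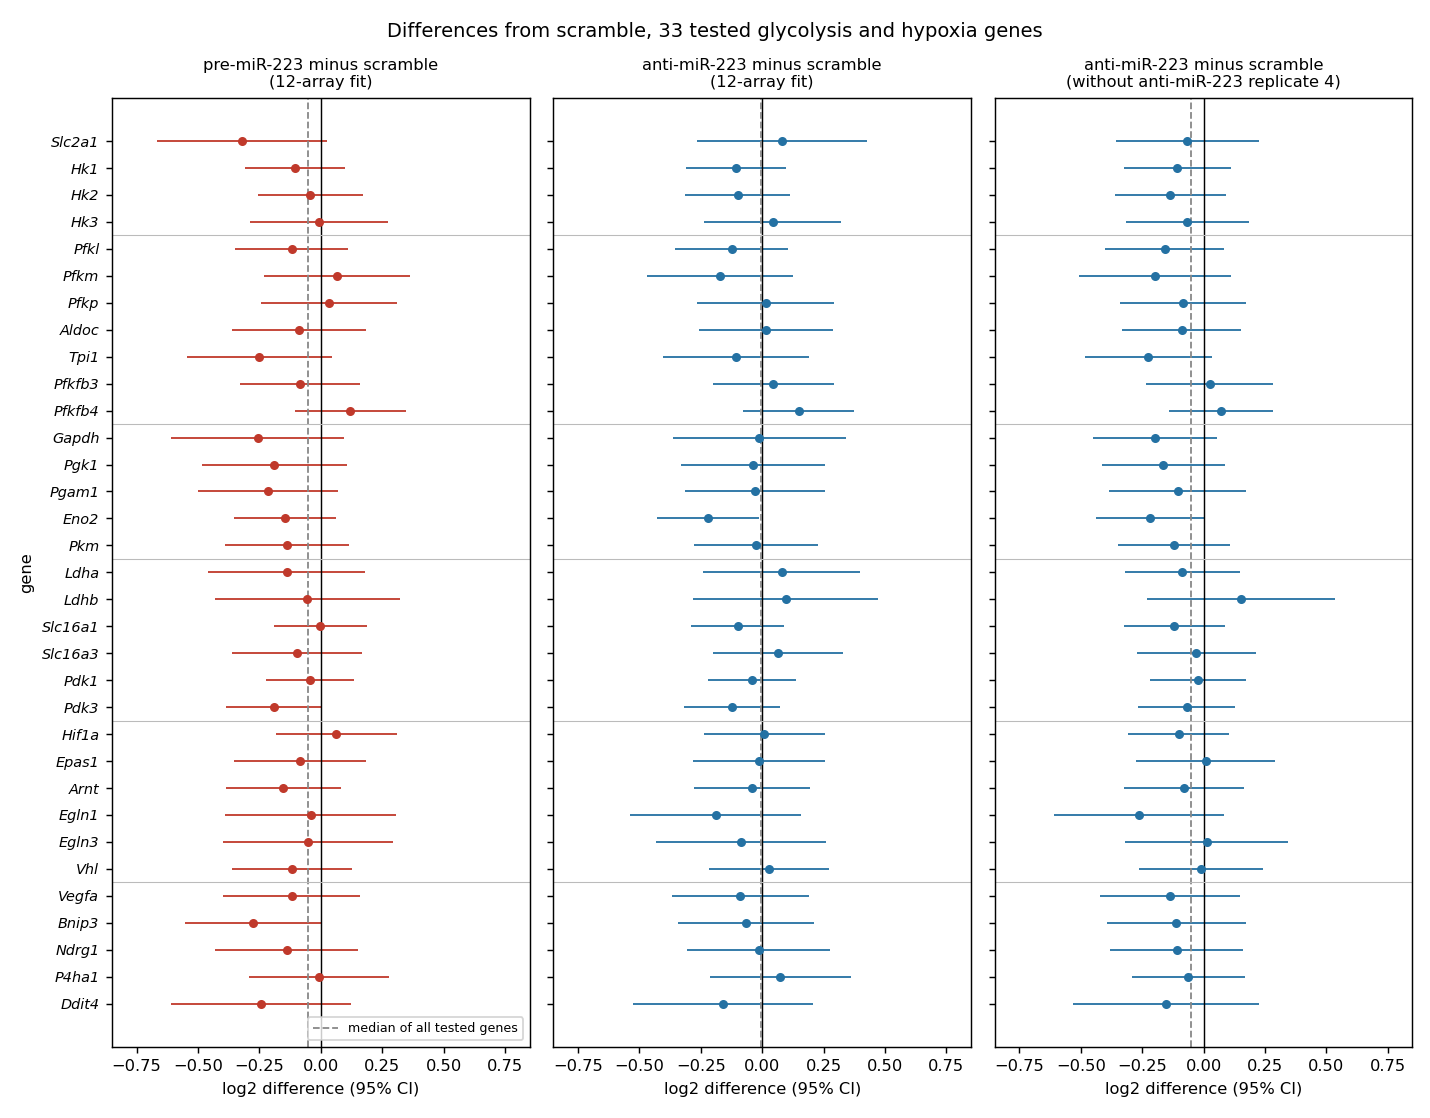
Log2 differences from scramble (horizontal axis) with 95% confidence intervals for the 33 tested genes (down the page, by role) for pre-miR-223, for anti-miR-223 and for anti-miR-223 without replicate 4. Intervals of nearly all genes cross 0, and the dashed line is the median of all tested genes.

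With anti-miR-223, the same genes lay close to scramble, and no gene passed the test. The mean was lower in anti-miR-223 arrays for 21 of the 33 genes (63.6%), with a median of -0.03 and a range of -0.22 to 0.15, beside 52.5% of all genes and a median of -0.01. After cyclic loess 16 of 33 were lower and the median was 0.00. Without anti-miR-223 replicate 4, 28 of 33 were lower, with a median of -0.10, beside 63.6% of all genes and a median of -0.05. By role, 5 of 5 lower glycolysis genes (median -0.03), 4 of 5 HIF targets (-0.07) and 3 of 7 upper glycolysis genes were lower with all arrays. After cyclic loess 1 of 5 lower glycolysis genes was lower. Without replicate 4, lower glycolysis and HIF targets each had 5 of 5 lower, with medians of -0.16 and -0.11. The lower side was thus not particular to pre-miR-223. This comparison shares its scramble arrays with the pre-miR-223 one, so the 2 sets of differences are not independent and are only set side by side.

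The limma test called 0 of the 33 genes at an adjusted p under 0.05 in anti-miR-223 against scramble arrays, where it called 0% of all genes. The lowest adjusted p was 1 among the 33 genes and 0.988 among all genes. At an unadjusted p under 0.05, 1 gene of the list was lower, Eno2, beside 1.35% of all genes lower (294 genes in either direction). Eno2 was also the gene of the list whose anti-miR-223 arrays all lay below all scramble arrays, beside 1.03% of all genes, or 4.53% of all genes without anti-miR-223 replicate 4. The interval lay within 1.5-fold in either direction for all 33 genes, beside 88.1% of all tested genes.

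Eno2, the neuronal-type enolase, had a log2 signal of 2.86, 2.96, 2.73 and 2.84 in anti-miR-223 and 3.23, 3.04, 2.96 and 3.05 in scramble arrays. All anti-miR-223 arrays were lower, and the nearest pair were both at 2.96. The mean was 2.85 ± 0.09 with anti-miR-223 and 3.07 ± 0.11 with scramble (SD, n = 4 each), a difference of -0.22 (-0.43 to -0.01; limma unadjusted p = 0.040, adjusted p = 1). Without anti-miR-223 replicate 4 it was -0.22 (-0.44 to 0.01).

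Other genes with the smallest p in this comparison overlapped between groups. Pfkm had a log2 signal of 3.02, 2.98, 2.41 and 2.83 in pre-miR-223, 2.34, 2.51, 2.78 and 2.64 in anti-miR-223 and 2.66, 2.84, 2.79 and 2.68 in scramble arrays. Its anti-miR-223 minus scramble difference was -0.17 (-0.47 to 0.12), at a low mean level of log2 2.71 over the 12 arrays. Pfkfb4 had a log2 signal of 3.50, 3.55, 3.67 and 3.62 in pre-miR-223, 3.64, 3.46, 3.51 and 3.85 in anti-miR-223 and 3.41, 3.60, 3.45 and 3.40 in scramble arrays, with a difference of 0.15 (-0.08 to 0.38), which was 0.07 without anti-miR-223 replicate 4. Egln1, the main oxygen-sensing hydroxylase, had a log2 signal of 5.40, 6.00, 5.44 and 5.52 in pre-miR-223, 5.55, 5.06, 5.50 and 5.66 in anti-miR-223 and 5.91, 5.62, 5.51 and 5.48 in scramble arrays. The Egln1 arrays spread widely within each group, and the difference was -0.19 (-0.54 to 0.16). Pdk3 differed by -0.12 (-0.32 to 0.07) and by -0.07 without replicate 4.

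Several anti-miR-223 differences changed side when replicate 4 was left out. Slc2a1 differed from scramble by 0.08 (-0.27 to 0.43) with it and by -0.07 (-0.36 to 0.22) without it. Ldha differed by 0.08 (-0.24 to 0.40) and by -0.09 (-0.32 to 0.15), and Hif1a by 0.01 (-0.24 to 0.26) and by -0.10 (-0.31 to 0.10). The other genes followed in every comparison kept their side: Hk2 at -0.10 with it and -0.14 without it, Pkm at -0.02 and -0.12, Vegfa at -0.09 and -0.14, and Bnip3 at -0.07 and -0.11. Each of these intervals included 0.

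Adding and blocking miR-223 were also compared directly. The mean was lower in pre-miR-223 than in anti-miR-223 arrays for 23 of the 33 genes (69.7%), with a median of -0.08 and a range of -0.40 to 0.24, beside 62.8% of all genes and a median of -0.04. With centred arrays and after cyclic loess 17 of 33 were lower, with medians of 0.00 and -0.02. Without anti-miR-223 replicate 4, 19 of 33 were lower, with a median of -0.02, beside 52.2% of all genes and a median of -0.01. The limma test called 0 of the 33 genes, as it called 0% of all genes, and the lowest adjusted p was 0.946. At an unadjusted p under 0.05, 1 of the 33, Slc2a1, was lower, beside 2.57% of all genes lower (528 in either direction). The interval lay within 1.5-fold for 31 of the 33 (93.9%), beside 82.9% of all genes.

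Slc2a1 had a mean of 7.15 ± 0.20 with pre-miR-223 and 7.55 ± 0.31 with anti-miR-223 (SD, n = 4 each). The groups overlapped through pre-miR-223 replicate 2 at 7.45. The difference was -0.40 (-0.75 to -0.05; limma unadjusted p = 0.0263, adjusted p = 0.946) and -0.25 (-0.55 to 0.04) without anti-miR-223 replicate 4. Bnip3 was the gene of the list whose pre-miR-223 arrays all lay below all anti-miR-223 arrays, by a small margin at 4.35 in both groups, beside 0.972% of all genes; without anti-miR-223 replicate 4 it did so beside 2.53% of all genes. Its difference was -0.21 (-0.49 to 0.07), and -0.11 without pre-miR-223 replicate 4.

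Without anti-miR-223 replicate 4, Hif1a was the gene whose pre-miR-223 arrays all lay above the anti-miR-223 arrays, beside 2.31% of all genes. Its difference was 0.17 (-0.04 to 0.37) then, against 0.05 (-0.19 to 0.30) with all arrays. A second, dimmer Hif1a cluster, at a mean of log2 3.41, overlapped between these arrays. It was at 3.42 to 3.64 with pre-miR-223 and at 3.48, 3.67 and 3.42 in anti-miR-223 replicates 1 to 3. Pfkm differed by 0.24 (-0.06 to 0.54), with overlapping groups. Gapdh differed by -0.24 (-0.60 to 0.11) and Ldha by -0.22 (-0.54 to 0.10), which became -0.06 and -0.05 without anti-miR-223 replicate 4. Hk2 differed by 0.06 (-0.16 to 0.27), Pkm by -0.11 (-0.37 to 0.14) and Vegfa by -0.03 (-0.31 to 0.25).

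Genes with more than 1 single-symbol cluster let clusters of the same gene be compared over the arrays. Gapdh had 3 such clusters, and 7 further clusters were shared with the predicted gene Gm12070. The 2 brighter Gapdh clusters moved together over the 12 arrays (Pearson r = 0.942, Spearman rho = 0.958), with permutation p = 2e-05 and 4e-05, the first being the smallest that 100000 permutations could give. Adjusted over the 8 pairs of clusters compared, these were 0.00016 and 0.00032, and r was 0.863 once anti-miR-223 replicate 4 and scramble replicate 2, the most distant arrays, were left out. The second cluster gave a pre-miR-223 minus scramble difference of -0.22 (-0.53 to 0.09), and the 7 clusters shared with Gm12070, of which 2 hold identical values, gave differences of -0.35 to -0.26. A dim cluster shared with the pseudogene Gapdh-ps15 gave -0.02. The third single-symbol Gapdh cluster, at a mean of log2 3.91, gave -0.32 (-0.82 to 0.17). Its anti-miR-223 minus scramble difference was 0.21 (-0.29 to 0.70), where the second cluster gave -0.06. Between pre-miR-223 and anti-miR-223 arrays it differed by -0.53 (-1.02 to -0.03, limma adjusted p = 0.933). The third Gapdh cluster correlated with the other two at r = 0.831 and 0.782 (permutation p = 0.0032 and 0.00768, adjusted p = 0.00853 and 0.0154; rho = 0.699 and 0.643, adjusted p = 0.0526 and 0.0711), which became 0.523 and 0.474 without the same arrays. Signal of Gapdh and of its near-identical copies cannot be separated on those clusters. Pkm, a different gene, was likewise highest in anti-miR-223 replicate 4 (10.67) and lowest in pre-miR-223 replicate 4 (10.13). Pairs of clusters from different genes were not compared. Whether the Gapdh clusters agree beyond shifts that bright genes share was therefore not tested.

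Clusters of Slc2a1, Pgam1, Pdk1 and Hif1a had r between -0.335 and 0.361 and rho between -0.182 and 0.517, with adjusted permutation p of 0.141 or more. Without the 2 most distant arrays of each pair, r was 0.658 for Pgam1 and 0.114 for Hif1a. The second, dim Slc2a1 cluster, at a mean of log2 2.27, differed by 0.08 (-0.19 to 0.36) between pre-miR-223 and scramble arrays. It differed by 0.05 (-0.22 to 0.33) between pre-miR-223 and anti-miR-223 arrays. The cluster used for Slc2a1 differed by -0.32 and -0.40 in these comparisons. The second Pgam1 cluster differed from scramble by 0.20 (-0.29 to 0.69) with pre-miR-223 and by 0.47 (-0.02 to 0.96) with anti-miR-223, where the cluster used for Pgam1 differed by -0.21 and -0.03. The chosen Ndrg1 cluster and a second one ran in opposite directions (r = -0.783, permutation p = 0.00234, adjusted p = 0.00853; rho = -0.608, permutation p = 0.0391, adjusted p = 0.0782). That relation rested on anti-miR-223 replicate 4 and pre-miR-223 replicate 4, without which r was -0.39. The second Ndrg1 cluster had a log2 signal of 4.85, 4.31, 4.89 and 5.67 in pre-miR-223, 4.62, 4.61, 4.64 and 3.20 in anti-miR-223 and 4.56, 3.74, 4.41 and 4.68 in scramble arrays. The second, dim Pdk1 cluster had 3.11, 2.10, 2.81 and 3.20 in pre-miR-223, 2.40, 2.10, 2.17 and 1.86 in anti-miR-223 and 1.80, 2.05, 2.35 and 2.44 in scramble arrays. With every cluster above the level tested on its own, it differed by 0.65 (0.17 to 1.12, limma adjusted p = 0.891 over 15458 clusters), while the bright Pdk1 cluster differed by -0.04. The Slc2a1, Pgam1, Ndrg1, Pdk1 and Hif1a clusters were singled out after their values were seen. What part of the transcript each cluster covers is not given in the sources used here.

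**Figure D5:**
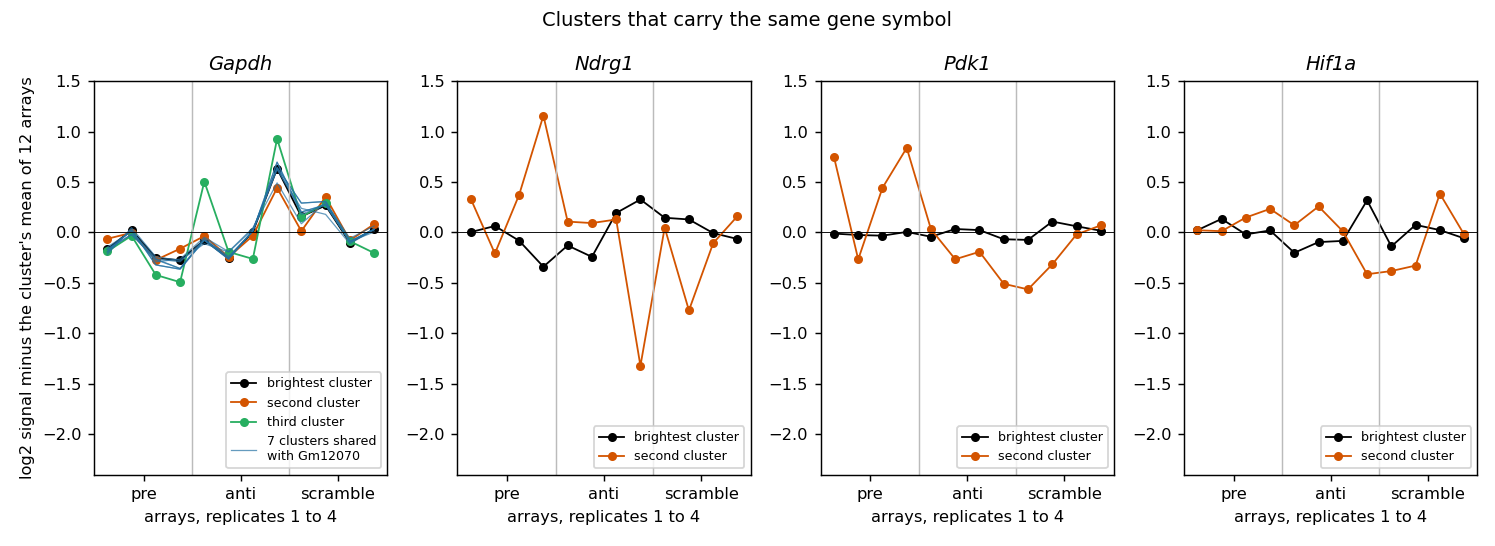
Log2 signal minus each cluster's mean of 12 arrays (vertical axis) for clusters that carry the same gene symbol, in pre-miR-223, anti-miR-223 and scramble arrays (horizontal axis, replicates 1 to 4 in each). The Gapdh clusters follow each other, while the second clusters of Ndrg1, Pdk1 and Hif1a do not follow the brightest ones.

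Of the 39 genes, 6 were not tested. Adm, which encodes the vasodilator peptide adrenomedullin, had a single-symbol cluster below the level required, with a log2 signal of 1.88, 1.74, 1.80 and 1.73 in pre-miR-223, 1.86, 1.74, 1.68 and 1.46 in anti-miR-223 and 1.74, 1.49, 1.57 and 1.56 in scramble arrays. Gpi1 and Eno1 had no cluster in the annotation used. Aldoa, Bnip3l and Ankrd37 were found only on clusters shared with another gene: the Bnip3l cluster, shared with a pseudogene, had means of 6.84 ± 0.16, 7.06 ± 0.26 and 7.01 ± 0.10 in pre-miR-223, anti-miR-223 and scramble arrays (SD, n = 4 each). The Aldoa cluster, shared with Aldoart1, had 4.08 ± 0.17, 4.27 ± 0.29 and 4.15 ± 0.14, and the Ankrd37 cluster, shared with Lrp2bp, had 2.72 ± 0.15, 3.05 ± 0.30 and 2.89 ± 0.09. All 3 shared clusters were lower on average in pre-miR-223 than in scramble arrays, by less than 0.20.

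Further genes of these and adjoining pathways were compared in the same way, beside 65.2% of all tested genes lower in pre-miR-223 than in scramble arrays. Among 34 tested genes of 42 further glycolysis and HIF symbols, 23 were lower (67.6%). The differences of the 34 lay between -0.45 and 0.15 and their median was -0.09, which was -0.01 with centred arrays and -0.02 after cyclic loess. Among 7 tested of 10 pentose phosphate genes, 5 were lower (71.4%), and 2 of 7 after cyclic loess. Among 26 tested of 28 genes of pyruvate oxidation and the citric acid cycle, 22 were lower (84.6%). The differences of the 26 lay between -0.75 and 0.08 with a median of -0.16, and 18 and 16 were lower under the other scalings, with medians of -0.08 and -0.06. None of these genes passed the limma test.

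Among these neighbours, examples chosen after their values were seen were Fam162a, Cited2 and Mpc1. Fam162a, a HIF-responsive mitochondrial gene, differed by -0.43 (-0.71 to -0.15, limma adjusted p = 0.921) with pre-miR-223 and by -0.31 (-0.59 to -0.03, adjusted p = 1) with anti-miR-223, in comparisons that share the scramble arrays. Cited2, a HIF-induced competitor for the coactivators of HIF, differed by -0.30 (-0.56 to -0.03) with pre-miR-223 and by -0.19 (-0.46 to 0.07) with anti-miR-223. Mpc1, a subunit of the mitochondrial pyruvate carrier, differed by -0.75 (-1.61 to 0.11) with pre-miR-223 and by -0.45 (-1.31 to 0.41) with anti-miR-223, the second value being -0.81 without anti-miR-223 replicate 4. In the anti-miR-223 arrays, 15 of 34 further glycolysis and HIF genes (44.1%) and 14 of 26 pyruvate and citric acid cycle genes (53.8%) were lower than in scramble arrays, beside 52.5% of all genes, and none passed the test. Without anti-miR-223 replicate 4 these counts were 23 of 34 and 24 of 26, beside 63.6% of all genes.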

How the data were processed

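The authors deposited 1 table of log2 values for 41345 transcript clusters on 12 arrays, 4 in each of 3 groups. RMA, Partek and Affymetrix Expression Console are listed in the submitters' processing notes without versions or roles; per the labels' protocols, RNA was labelled with the GeneChip WT PLUS kit. The base of the logarithm was assumed to be 2, the usual output of RMA, and the deposited log2 values ran from 0.53 to 12.4. RMA gives arrays like distributions, so differences in total RNA between groups cannot be seen. No genome build is stated for the table; sequences and coordinates come from RefSeq (GRCm38.p6).

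Clusters were named through the platform annotation: 23521 had 1 symbol, 1814 had several and 16010 had none. The brightest single-symbol cluster stood for each of 22180 symbols, and 14611 genes were tested, those with a mean over log2 2.01, the 40th percentile of the cluster means. All 39 genes were accounted for. The tests used lmFit and eBayes from limma 3.58.1, run in R 4.3.3 (12 arrays in 1 model, no covariates, 9 residual degrees of freedom, 2-sided), with Benjamini-Hochberg adjustment over all tested genes and calls at an adjusted p under 0.05. Intervals are 95% confidence intervals from that model. Correlations between clusters used 100000 permutations. The procedure was tested on simulated data.

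The genes, their roles and the other lists were chosen with earlier results of these data known. Per-array values are given for the 5 list genes of lowest p per comparison and for 7 genes followed throughout (Slc2a1, Hk2, Ldha, Pkm, Hif1a, Vegfa and Bnip3). For each result 21 alternatives were run, of which 12 left out 1 array each. The labels name no batch.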

Additional observations from a re-analysis of the deposited data

Results flagged for a closer look

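In 5 of 102 sets of 4 arrays examined (33 genes and their median, in 3 groups), the highest or lowest array was farther from its neighbour, relative to the range, than Dixon's 95% critical value for 4 values. Chance flags about 1 in 20 such groups, and over all tested genes 6.46% of the sets were separated in this way, so the number is near what the arrays give anywhere. Slc2a1 was high in pre-miR-223 replicate 2, at log2 7.45, with the other 3 arrays at 7.04 to 7.05. Hk2 was low in anti-miR-223 replicate 1, at 5.80, with the others at 6.07 to 6.12. Pgk1 was high in anti-miR-223 replicate 4, at 9.82, with the others at 9.28 to 9.34. Ldha was high in the same array, at 4.36, with the others at 3.62 to 3.74. Bnip3 was low in pre-miR-223 replicate 4, at 3.93, with the others at 4.34 to 4.35.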

How the results depend on the processing

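No gene was called in any of the 3 comparisons under any of the 21 alternatives by limma. The lowest adjusted p of any gene was 0.234 for pre-miR-223 and 0.194 for anti-miR-223, each against scramble, and 0.113 between pre-miR-223 and anti-miR-223; in that order, the numbers of genes at an unadjusted p under 0.05 ran over 314 to 1884, 161 to 978 and 280 to 1147. With the replicate block, 29, 21 and 23 genes of the list were lower, as without it, and no gene was called. Deviations from the group means correlated at r from -0.50 to 0.39 between arrays of the same number. Arrays of different numbers were not compared in this way, so whether the numbers pair the arrays cannot be decided here. Leaving out 1 array at a time gave 26 to 30, 15 to 28 and 19 to 26 genes lower and medians of -0.15 to -0.08, -0.10 to 0.01 and -0.12 to -0.02; the other alternatives gave 20 to 31, 16 to 25 and 17 to 26 genes lower. Across all alternatives 20, 12 and 17 of the 33 genes never changed sign. These differences changed sign, and the cause was not tested. With pre-miR-223 against scramble, Hk2 was 0.037 with centred arrays and 0.065 after cyclic loess. With anti-miR-223 against scramble, Pkm was 0.021 after cyclic loess and Hif1a -0.075 with array weights. With pre-miR-223 against anti-miR-223, Vegfa was 0.049 with centred arrays, 0.064 after cyclic loess and 0.041 with array weights. Leaving out 1 array gave, with anti-miR-223 against scramble, Slc2a1 -0.067 to 0.18, Ldha -0.086 to 0.16, Pkm -0.12 to 0.030, Hif1a -0.10 to 0.071, Bnip3 -0.13 to 0.034 and Vegfa -0.15 to 0.011. With pre-miR-223 against anti-miR-223 it gave Hk2 -0.014 to 0.10, Hif1a -0.0070 to 0.17 and Vegfa -0.13 to 0.067. The 4 arrays a group limit what could be seen: the median interval of the 33 genes reached 0.28 to either side.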
